A study of Mus musculus with 6 samples.

Results

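The genes described here encode the proteins of the mitochondrial ribosome. They were chosen as every gene whose symbol in the platform annotation starts with Mrpl or Mrps, a rule that uses no measured value. This gave 77 of the 19938 genes measured, 48 with an Mrpl symbol (large subunit) and 29 with an Mrps symbol (small subunit). RNA was measured on 6 Affymetrix mouse arrays, 3 from sanroque mice and 3 from wild-type mice. Sanroque mice are homozygous for a point mutation of Roquin (Roquin san/san), an RNA-binding protein encoded by Rc3h1 that promotes the decay of immune mRNAs, and wild-type mice were Roquin +/+. All were 10-week-old C57BL/6 mice, and each array held RNA of CD44lo CD8+ T cells (naive by that marker), isolated by flow cytometry from spleen and lymph nodes. The mutation is carried in the germline and not only in T cells, so the T cells came from animals in which other cells carry it too. The labels name the arrays of a group biological replicates, without saying whether mice were pooled.

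The mitochondrial ribosome translates the few mRNAs encoded by mitochondrial DNA, all of which make subunits of the respiratory chain and ATP synthase. Its RNAs come from mitochondrial DNA, but every one of its proteins is encoded in the nucleus and imported. Some of these proteins descend from those of the bacterial ribosome, and others exist only in mitochondria. T cells make more mitochondrial protein when they leave quiescence, and mitochondrial translation is needed for the proliferation and effector function of activated T cells.

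Rc3h1 read 9.98, 10.17 and 10.30 in sanroque and 9.93, 10.11 and 9.97 in wild type (log2 intensity, replicates 1 to 3), which does not check the labels because the allele is a point mutation. Cd44, whose protein was gated low in both groups, read 7.34, 7.70 and 7.90 in sanroque and 5.98, 6.43 and 6.34 in wild type, a log2 fold of 1.40 ± 0.17. Cd8a read between 12.99 and 13.02 in sanroque and between 13.00 and 13.05 in wild type. Of 9 measured T cell markers 1 fell (Cd3d, a chain of the T cell receptor complex, log2 fold -0.52) and 0 rose, and their summed linear intensity was 39010 to 40843 in sanroque and 43008 to 44393 in wild type. Of 12 B cell markers 7 rose and 0 fell, with sums of 8494 to 10456 in sanroque and 2226 to 5588 in wild type, and of 15 myeloid markers 13 rose and 0 fell, with sums of 8162 to 12803 in sanroque and 1069 to 1768 in wild type. Of other lists, 5 of 7 plasma cell markers rose, with sums of 1744 to 2372 in sanroque and 590.0 to 888.6 in wild type, as did 4 of 7 CD4 T cell markers (751.7 to 1113 in sanroque, 415.2 to 459.2 in wild type). Of 7 NK cell markers 3 rose (6043 to 8392 in sanroque, 5610 to 6163 in wild type) and of 8 dendritic cell markers 1 rose (2653 to 3149 in sanroque, 2725 to 3154 in wild type), and the sums of these last 2 lists overlapped between the groups. No gene of these 4 lists fell. Over all genes, 3.26% rose and 2.51% fell. All 12 B cell markers and all 15 myeloid markers had a log2 fold above 0, and 0 of them was at an intensity of 0. Sanroque replicate 1 stood apart from the other arrays with an Xist level of 11.20, against 4.02 to 4.17 on the other arrays, and had the highest myeloid sum, while wild type replicate 2 had the highest B cell and myeloid sums of its group. The part of other cell types in the differences below was not tested, and results are also given without these 2 arrays. In sorted bulk samples, fewer cells of a type and less RNA per cell cannot be told apart.

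Measured levels of mitochondrial ribosomal protein mRNAs were lower in sanroque than in wild-type samples in most of the family, mostly by small amounts that did not pass the test gene by gene. Of 77 genes, 9 fell and 0 rose, namely Mrpl24, Mrpl30, Mrpl44, Mrpl48 and Mrpl58 of the large subunit and Mrps14, Mrps18b, Mrps26 and Mrps33 of the small subunit (limma, with a threshold of 0.05 on p-values adjusted by Benjamini-Hochberg for all genes). That is 11.7% of the members, where 2.51% of all genes were called lower, 3.26% higher and 5.77% in either direction. Among genes with a mean log2 level above 6, tested alone, 6.66% were called lower, with 13 of the 74 members that remained. At an unadjusted p below 0.05, 36 members were lower and 0 higher, against 10.7% of all genes lower and 8.16% higher, and 20.0% of genes above a level of 6 lower. The log2 fold was below 0 in 72 of 77 members, against 61.5% of all genes and 58.9% of those with a mean level above 6, and the median log2 fold of the members was -0.25 (interquartile range -0.38 to -0.15), against -0.03 for all genes.

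The calls, of members as of all genes, depended on single arrays, while the direction of the members' median did not. Leaving out sanroque replicate 2 or wild type replicate 1 left 0 members called, and leaving out sanroque replicate 1 or wild type replicate 2 left 1, Mrpl44. Of all genes, 0.276%, 0.11%, 0.742% and 0.456% were called lower in these fits, in that order, against 2.51% with all arrays. Leaving out sanroque replicate 3 gave 16 called members and leaving out wild type replicate 3 gave 14, while 0 were called once both arrays that stood apart were removed. The shares of all genes called lower were then 3.65%, 2.28% and 0.135%. The median log2 fold of the 77 members ranged between -0.33 and -0.23 over the fits with 1 array left out, and it was -0.22 without both arrays that stood apart, with 73 of 77 folds below 0.

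The promoters of the 6 members with the largest folds among the 9 that passed the test are shown, because nuclear genes for mitochondrial proteins are known for sites of ETS factors, among them GABP (also called NRF-2), and of NRF1. Each sequence gives the 250 bases before the annotated start, 5′ to 3′ in the direction of the gene, from RefSeq (GRCm38.p6). Capitals mark the ETS core CCGGAA or the NRF1 motif on either strand.
Mrps33, chr6:39810937-39811186, minus strand: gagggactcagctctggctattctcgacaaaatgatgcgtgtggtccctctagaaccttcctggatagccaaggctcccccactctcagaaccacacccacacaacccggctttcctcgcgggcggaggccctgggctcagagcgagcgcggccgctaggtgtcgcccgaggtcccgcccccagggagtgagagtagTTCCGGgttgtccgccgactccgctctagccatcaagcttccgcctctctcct
Mrps18b, chr17:35916441-35916690, minus strand: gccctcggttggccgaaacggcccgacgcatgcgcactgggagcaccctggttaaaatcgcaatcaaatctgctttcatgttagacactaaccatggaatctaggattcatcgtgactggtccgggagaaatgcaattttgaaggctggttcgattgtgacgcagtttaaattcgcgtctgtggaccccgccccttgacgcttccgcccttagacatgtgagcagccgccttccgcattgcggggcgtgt
Mrpl24, chr3:87919294-87919543, plus strand: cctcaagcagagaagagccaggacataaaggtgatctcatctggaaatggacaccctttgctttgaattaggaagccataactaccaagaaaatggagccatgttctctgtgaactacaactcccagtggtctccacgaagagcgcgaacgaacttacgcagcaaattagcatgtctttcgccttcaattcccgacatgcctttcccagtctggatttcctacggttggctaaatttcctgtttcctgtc
Mrps26, chr2:130563507-130563756, plus strand: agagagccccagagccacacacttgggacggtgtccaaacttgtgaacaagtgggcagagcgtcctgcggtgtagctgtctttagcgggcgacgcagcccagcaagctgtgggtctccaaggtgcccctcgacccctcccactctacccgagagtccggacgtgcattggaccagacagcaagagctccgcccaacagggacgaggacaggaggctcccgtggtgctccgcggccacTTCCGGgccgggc
Mrpl30, chr1:37890227-37890476, plus strand: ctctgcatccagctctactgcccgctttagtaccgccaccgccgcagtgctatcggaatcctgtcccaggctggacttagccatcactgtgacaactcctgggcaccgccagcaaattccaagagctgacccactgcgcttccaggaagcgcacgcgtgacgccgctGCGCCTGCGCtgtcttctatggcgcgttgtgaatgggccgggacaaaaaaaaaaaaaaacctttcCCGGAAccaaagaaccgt
Mrpl44, chr1:79775768-79776017, plus strand: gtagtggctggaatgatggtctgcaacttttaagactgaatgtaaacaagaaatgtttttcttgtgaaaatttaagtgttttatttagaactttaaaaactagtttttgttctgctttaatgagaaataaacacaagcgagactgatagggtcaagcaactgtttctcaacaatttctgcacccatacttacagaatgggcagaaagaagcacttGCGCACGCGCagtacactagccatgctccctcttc
Within these 250 bases both motifs were present in Mrpl30, an ETS core in Mrps33 and Mrps26, and an NRF1 motif in Mrpl44. In Mrps18b and Mrpl24 neither was found in the stretch shown. With the 50 bases after the start included, an ETS core was also present in Mrps18b and Mrpl44, and an NRF1 motif in Mrps26. Mrps33 then had a further ETS core, and Mrpl24 still had neither motif.

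RefSeq promoter windows, from 250 bases before to 50 bases after the start, were matched for 68 of the 77 members (74 windows, as some genes have several starts). The ETS core was found in 42 of these 74 windows, or 56.8%. It was found in 14.9% of all 32851 promoter windows and in 29.1% of the 9915 windows of measured genes with a mean log2 level above 6. The NRF1 motif was found in 13 member windows (17.6%), against 4.60% of all windows and 10.9% of the windows of genes above 6. The core ATGGCG of the YY1 motif was found in 24.3% of member windows, against 8.93% of all windows and 16.0% of those above 6. For the GC box GGGCGG, bound by Sp1, the shares were 52.7% of member windows, 35.7% of all windows and 63.2% of windows of genes above 6. For the E-box CACGTG, bound by MYC, they were 9.46%, 7.15% and 10.5%, and for the CCAAT box 39.2%, 37.4% and 37.2%. Each motif was searched on both strands, and no motif contains another. Median GC content was 58.5% in member windows, 52.7% in all windows and 61.0% in windows of genes above 6. Members with an ETS core in a window had a median log2 fold of -0.29 (39 genes) and those without one of -0.25 (29 genes), while measured genes above 6 had -0.07 with one and -0.04 without.

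Among small subunit genes, Mrps33, whose protein exists only in mitochondrial ribosomes, had the largest fall. It read 8.74, 8.54 and 9.01 in sanroque, against 9.69, 9.54 and 9.35 in wild type (log2 intensity, replicates 1 to 3). All 3 sanroque values lay below all 3 wild-type values, and the means were 8.76 ± 0.24 and 9.52 ± 0.17 (SD, n = 3 each), a 1.69-fold decrease (log2 fold -0.76 ± 0.14 SE, limma adjusted p = 0.0263, Benjamini-Hochberg). A dimmer Mrps33 probe set gave a log2 fold of -0.67. Mrps18b, one of 3 mitochondrial relatives of bacterial ribosomal protein S18, read 9.11, 9.02 and 9.42 in sanroque and 9.86, 9.84 and 9.76 in wild type. The groups were again apart, with the highest sanroque value in replicate 3, and the log2 fold was -0.63 ± 0.11 (limma adjusted p = 0.0235, Benjamini-Hochberg).

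Mrps26, a mitochondria-specific small subunit protein, read 8.83, 8.76 and 8.98 in sanroque and 9.46, 9.42 and 9.31 in wild type. The gap between the groups was wider than the range within either, at a log2 fold of -0.54 ± 0.08 (limma adjusted p = 0.0158, Benjamini-Hochberg). Mrps14, a relative of bacterial S14 in the head of the small subunit, read 8.11, 8.33 and 8.40 in sanroque and 8.73, 8.78 and 8.69 in wild type. Its wild-type arrays lay close together and its lowest value was in sanroque replicate 1 (log2 fold -0.46 ± 0.09, limma adjusted p = 0.0328, Benjamini-Hochberg).

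Among large subunit genes, Mrpl24 fell by 0.58 ± 0.11 on the log2 scale (limma adjusted p = 0.0299, Benjamini-Hochberg). Its bacterial relative L24 is one of the proteins that start large subunit assembly. It read 10.10, 10.25 and 10.48 in sanroque and 10.89, 10.94 and 10.75 in wild type, with no overlap. Mrpl30, a relative of bacterial L30, read 8.84, 8.95 and 9.16 in sanroque and 9.61, 9.43 and 9.49 in wild type (log2 fold -0.53 ± 0.10, limma adjusted p = 0.0292, Benjamini-Hochberg).

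Mrpl44, a mitochondria-specific protein with an RNase III-like fold, had the smallest adjusted p of the members. It read 8.07, 8.07 and 8.15 in sanroque and 8.56, 8.61 and 8.54 in wild type, so that the replicates of each group lay within 0.1 of a log2 unit. The means were 8.10 ± 0.05 and 8.57 ± 0.04 (SD, n = 3 each), a 1.39-fold decrease (limma adjusted p = 0.0113, Benjamini-Hochberg). Mrpl58 encodes a peptidyl-tRNA hydrolase (also called ICT1) that is built into the large subunit and releases stalled chains. It read 8.79, 8.80 and 8.92 in sanroque and 9.14, 9.15 and 9.23 in wild type, with no overlap and a log2 fold of -0.34 ± 0.07 (limma adjusted p = 0.0383, Benjamini-Hochberg). Mrpl48, another mitochondria-specific protein, read 7.88, 7.92 and 7.97 in sanroque and 8.31, 8.29 and 8.15 in wild type (log2 fold -0.33 ± 0.07, limma adjusted p = 0.0472, Benjamini-Hochberg).

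**Figure D1:**
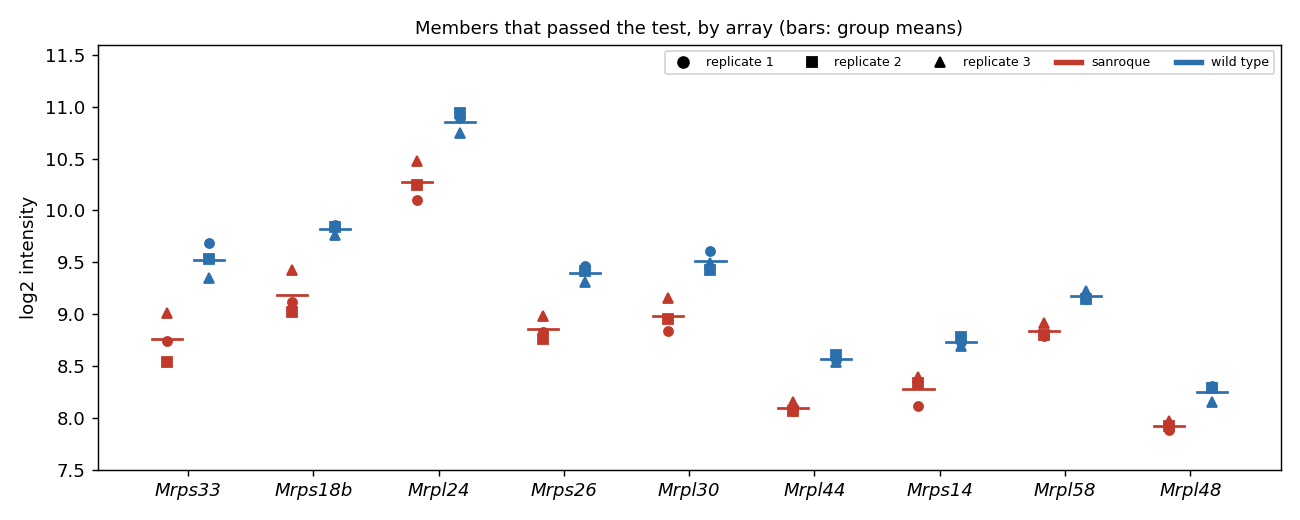
Log2 intensity of the 9 members that passed the test, by array, with sanroque in red left of wild type in blue, marker shape for the replicate and a bar for the group mean. In all 9 genes each sanroque array lies below each wild-type array, and sanroque replicate 3 (triangle) is the highest sanroque array.

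Several members had folds as large as those called but spread too widely between arrays to pass. Mrpl23, a relative of the bacterial protein at the exit of the peptide tunnel, read 9.004, 8.997 and 9.542 in sanroque and 10.06, 9.93 and 9.50 in wild type. The highest sanroque array and the lowest wild-type array crossed, at a log2 fold of -0.65 ± 0.19 (limma adjusted p = 0.110, Benjamini-Hochberg), and a further Mrpl23 probe set gave the same fold of -0.65. Mrpl42 had a log2 fold of -0.63 ± 0.26 and Mrpl38 of -0.55 ± 0.16, and both encode mitochondria-specific large subunit proteins. Mrpl42 was dim, at 5.81, 5.56 and 6.07 in sanroque and 6.62, 6.86 and 5.86 in wild type. Mrpl38 read 8.27, 8.43 and 8.83 in sanroque and 9.26, 8.98 and 8.95 in wild type, without overlap.

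In the small subunit, Mrps23, a mitochondria-specific protein, read 9.12, 9.15 and 9.39 in sanroque and 9.79, 9.73 and 9.47 in wild type (log2 fold -0.44 ± 0.11, limma adjusted p = 0.0676, Benjamini-Hochberg). Mrps5, a relative of bacterial S5, had a log2 fold of -0.42 ± 0.10 with no overlap (limma adjusted p = 0.0591, Benjamini-Hochberg), and its further probe set one of -0.20. Mrps18c, a further S18 relative, had a log2 fold of -0.43 ± 0.15, with wild type replicate 3 at 9.26 and sanroque replicate 3 at 9.29. At the bright end, Mrps15 read 10.03, 9.82 and 10.07 in sanroque and 10.31, 10.15 and 10.13 in wild type, which did not overlap at a log2 fold of -0.22 ± 0.09. At the dim end, Mrps36 (log2 fold -0.25 ± 0.13) and Mrpl22 (-0.35 ± 0.32) had mean levels below 6. Mrps36 carries a ribosomal symbol, but its product is known as a component of the alpha-ketoglutarate dehydrogenase complex.

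Only 5 members had a log2 fold above 0, and none of these reached 0.1. Mrpl12 encodes the stalk protein that recruits translation factors. It read 7.70, 7.80 and 7.63 in sanroque and 7.70, 7.53 and 7.74 in wild type, at a log2 fold of 0.05 ± 0.08 (95% interval -0.14 to 0.25). The groups also overlapped in Mrpl27 (0.03 ± 0.11, interval -0.23 to 0.30), Mrpl57 (0.01 ± 0.09, -0.21 to 0.22), Mrps16 (0.03 ± 0.10, -0.19 to 0.26) and Mrps10 (0.02 ± 0.13, -0.29 to 0.33). The sign of each of these 5 turned under at least 1 other setting or with an array left out. These intervals still include falls of the size of the family's median only for Mrps10, and for Mrpl27 they reach -0.23.

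**Figure D2:**
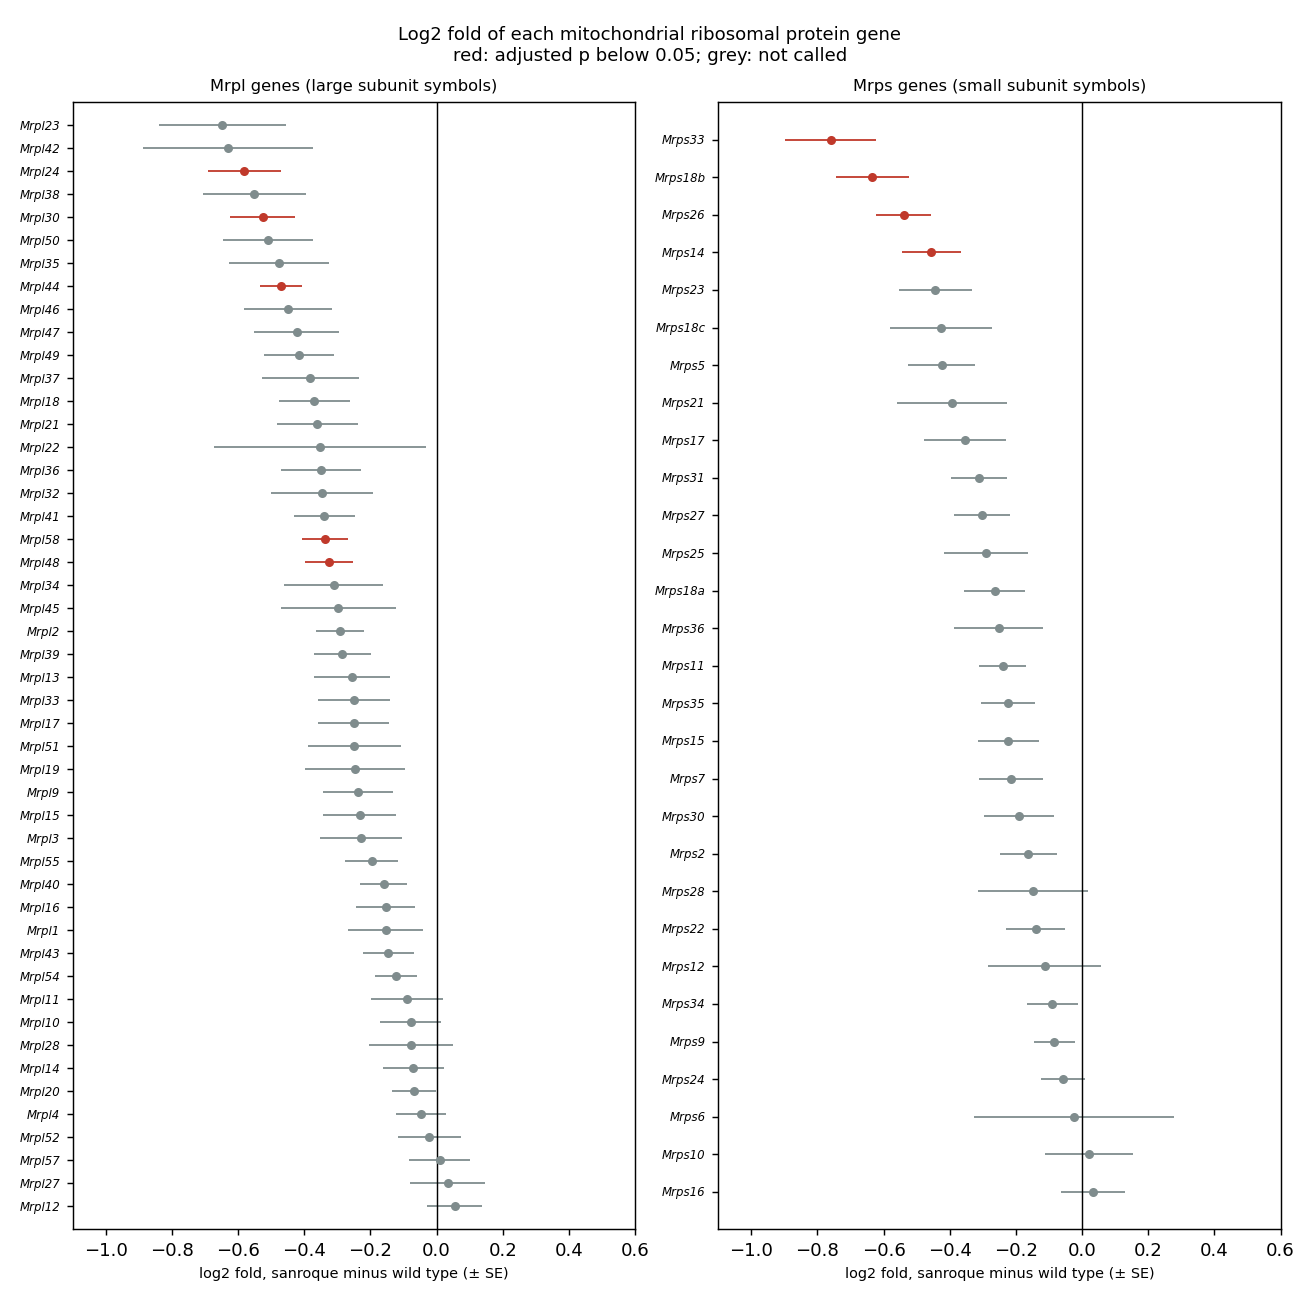
Log2 fold of sanroque minus wild type with its standard error for each of the 48 Mrpl genes (left) and 29 Mrps genes (right), sorted by fold. Red points passed the adjusted p threshold and all 9 of them lie left of 0, while 5 grey points lie right of it.

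Taking the subunits apart, 5 of 48 Mrpl genes fell (10.4%), 0 rose and 43 did not pass, with a median log2 fold of -0.27. Of 29 Mrps genes 4 fell (13.8%), 0 rose and 25 did not pass, with a median of -0.24. Of all genes 2.51% fell. Folds were below 0 in 45 Mrpl and 27 Mrps genes. At an unadjusted p below 0.05, 21 Mrpl and 15 Mrps genes were lower and 0 of either was higher, where 10.7% of all genes and 20.0% of those above a level of 6 were lower. The medians of the subunits lay closer to each other than to the median of all genes. Counting by position in the known mammalian structure, which places Mrps18a and Mrps30 in the large subunit, gave medians of -0.26 for 50 large subunit genes and -0.23 for 26 small subunit genes, with the same 5 and 4 calls.

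The groups of 3 arrays did not overlap in 32 of 77 members (41.6%), and in all 32 the sanroque arrays were the lower ones. Over all genes, 13.2% had all 3 sanroque arrays below all 3 wild-type arrays and 9.46% had them above, and among the 9750 genes with a mean level above 6 the share below was 20.6%. The split between members of bacterial descent and mitochondria-specific members was uneven and was not tested. Of 29 large subunit genes with bacterial relatives 6 (20.7%) had all sanroque arrays below wild type, near the 20.6% of genes above 6. They were Mrpl2, Mrpl17, Mrpl18 and Mrpl47 beside the called Mrpl24 and Mrpl30. Of 19 mitochondria-specific large subunit genes 13 (68.4%) had all sanroque arrays below wild type. They were Mrpl38, Mrpl39, Mrpl40, Mrpl41, Mrpl43, Mrpl46, Mrpl49, Mrpl50, Mrpl54 and Mrpl55 beside the called Mrpl44, Mrpl48 and Mrpl58. Median log2 folds were -0.25 in the 29 and -0.33 in the 19.

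Among small subunit genes, 7 of 18 with bacterial relatives (Mrps5, Mrps9, Mrps11, Mrps15 and Mrps18a beside Mrps14 and Mrps18b) and 6 of 10 mitochondria-specific ones (Mrps23, Mrps27, Mrps31 and Mrps35 beside Mrps26 and Mrps33) did not overlap, at median log2 folds of -0.22 and -0.30. These are 38.9% and 60%, where 13.2% of all genes and 20.6% of genes above 6 had all sanroque arrays below wild type. Mrps36 was put in neither class, and its groups overlapped.

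The groups overlapped in 45 members. Of large subunit genes with bacterial relatives these were Mrpl1, Mrpl3, Mrpl4, Mrpl9, Mrpl10, Mrpl11, Mrpl12, Mrpl13, Mrpl14, Mrpl15, Mrpl16, Mrpl19, Mrpl20, Mrpl21, Mrpl22, Mrpl23, Mrpl27, Mrpl28, Mrpl32, Mrpl33, Mrpl34, Mrpl35 and Mrpl36, with log2 folds between -0.65 and 0.05. Mitochondria-specific ones were Mrpl37, Mrpl42, Mrpl45, Mrpl51, Mrpl52 and Mrpl57. In the small subunit they were Mrps2, Mrps6, Mrps7, Mrps10, Mrps12, Mrps16, Mrps17, Mrps18c, Mrps21, Mrps24 and Mrps28 with bacterial relatives, and Mrps22, Mrps25, Mrps30 and Mrps34 without. The Mrpl53 gene has 1 probe set, which also names another gene, and was therefore not among the 77.

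Single arrays differed in how far they moved. Expressed as the median difference from each gene's wild-type mean, Mrpl genes lay at -0.29, -0.38 and -0.17 in sanroque replicates 1 to 3, against 0.05, 0.04 and -0.11 in wild type replicates 1 to 3. Mrps genes lay at -0.32, -0.30 and -0.18 in sanroque, against 0.07, 0.02 and -0.07 in wild type. The groups kept apart in both subunits, but the gap between sanroque replicate 3 and wild type replicate 3 was narrow. Sanroque replicate 3 was the highest sanroque array in 50 of 77 members and wild type replicate 3 the lowest wild-type array in 54. Members below the lowest wild-type array numbered 58, 62 and 38 in sanroque replicates 1 to 3, or 75.3%, 80.5% and 49.4%, against 31.5%, 30.4% and 36.0% of all genes and 43.7%, 40.1% and 34.2% of genes above a level of 6.

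Within groups, signal of other cell types and member levels did not follow 1 order. In wild type, replicate 2 had the highest B cell sum (5588) and replicate 3 the lowest (2226), while member levels were lower in replicate 3. In sanroque, replicate 3 had the highest B cell sum (10456) and the highest member levels, and replicate 2 the lowest B cell sum (8494) and the lowest Mrpl levels. Myeloid sums in sanroque replicates 1 to 3 were 12803, 9548 and 8162, so the array with the highest sum also had the lowest Mrps median (-0.32) and that with the lowest sum the highest. Between the groups, B cell and myeloid sums were higher in sanroque and member levels lower, and their part in the result was not tested.

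**Figure D3:**
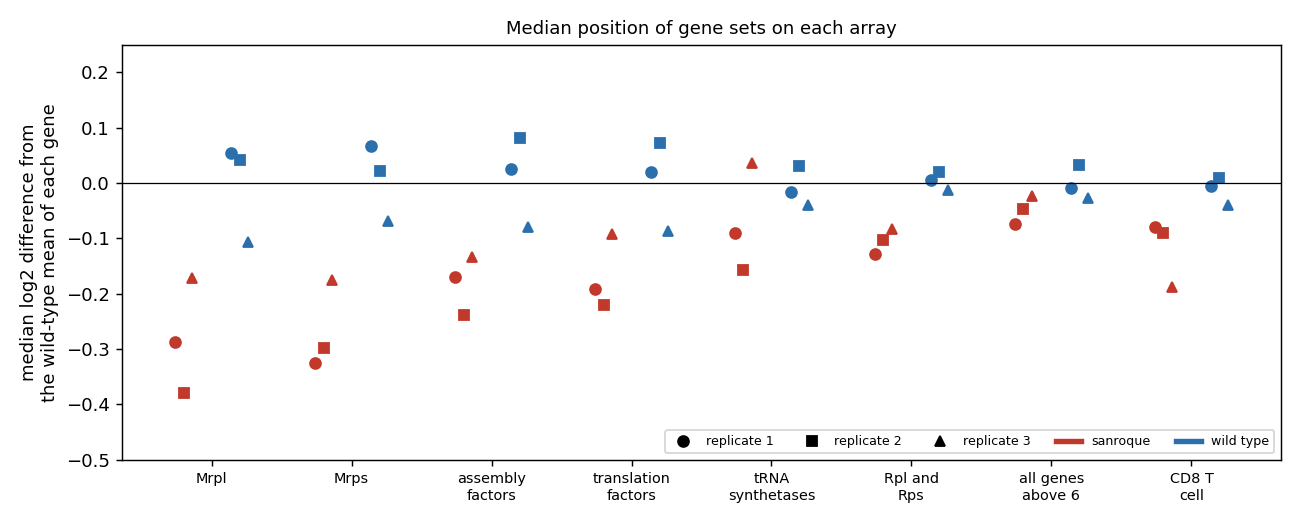
Median, over the genes of a set, of the log2 difference from each gene's wild-type mean, for each array, with sanroque in red left of wild type in blue and marker shape for the replicate. The 3 sanroque arrays lie below the 3 wild-type arrays for Mrpl and Mrps genes, at -0.38 to -0.17 and -0.32 to -0.18, and the position of genes with a mean level above 6 is drawn for comparison.

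Proteins of the mitochondrial ribosome under other symbols numbered 5 measured of 8 listed, with a median log2 fold of -0.25. Of the 5, 1 fell (20.0%, against 2.51% of all genes) and 0 rose. The one that fell was Chchd1, a small subunit protein, at 7.28, 6.96 and 7.08 in sanroque and 7.53, 7.56 and 7.49 in wild type (log2 fold -0.42 ± 0.09, limma adjusted p = 0.0483, Benjamini-Hochberg). Of 26 measured assembly factors, Mtg1, a GTPase of large subunit assembly, fell by 0.54 ± 0.12 (limma adjusted p = 0.0477, Benjamini-Hochberg) and 0 rose. This 1 of 26 is 3.85%, near the 2.51% of all genes called lower. Mtg1 read 7.29, 7.24 and 7.47 in sanroque and 7.97, 8.02 and 7.63 in wild type, without overlap. Folds were below 0 in 24 of these 26, with a median of -0.18. At an unadjusted p below 0.05, 2 proteins under other symbols and 12 assembly factors were lower and 0 of either was higher, against 10.7% of all genes and 20.0% of genes above 6 lower.

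Of 15 measured translation factors 3 fell (20.0%) and 0 rose, where 2.51% of all genes and 4.98% of genes above 6 fell. Mrrf, the factor that recycles ribosomes after termination, read 7.66, 7.62 and 7.67 in sanroque and 8.33, 8.20 and 8.32 in wild type. Neither group spanned more than a small part of the gap between them, at a log2 fold of -0.64 ± 0.07 (limma adjusted p = 0.00462, Benjamini-Hochberg). Mrrf stayed past the threshold in each of the 14 refits, which changed the probe set rule, the scaling, the model, the filter or the arrays. Mtif3, an initiation factor, read 7.61, 7.70 and 7.84 in sanroque and 8.20, 8.14 and 8.04 in wild type (log2 fold -0.41 ± 0.08, limma adjusted p = 0.0388, Benjamini-Hochberg). Mtfmt, which formylates the initiator methionyl-tRNA, read 8.61, 8.58 and 8.57 in sanroque and 8.89, 8.84 and 8.95 in wild type (log2 fold -0.30 ± 0.06, limma adjusted p = 0.0398, Benjamini-Hochberg). The median log2 fold of the 15 was -0.17. Without adjustment, 5 of the 15 had a p below 0.05 and a fold below 0 and 0 one above 0, where 10.7% of all genes and 20.0% of those above 6 did so on the lower side.

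None of 19 measured mitochondrial aminoacyl-tRNA synthetase and related genes passed in either direction (0 by limma), and their median log2 fold was -0.06. At an unadjusted p below 0.05, 2 were lower and 0 higher. That share is close to the 10.7% of all genes but below the 20.0% of genes above 6, where all 19 lay (lowest mean level 6.34). Yars2 and Sars2, the synthetases for tyrosine and serine, had log2 folds of -0.32 ± 0.10 and -0.27 ± 0.09. Of 14 regulators of mitochondrial transcription and biogenesis 0 passed (limma, with 1 lower and 0 higher at an unadjusted p below 0.05, under the share of all genes), at a median log2 fold of -0.14. The coactivator gene Pprc1 had a log2 fold of -0.27 ± 0.10 and Yy1 of -0.20 ± 0.09. Myc, a transcription factor of biosynthetic growth, read 10.39, 10.16 and 10.34 in sanroque and 10.27, 10.46 and 10.47 in wild type, and the groups overlapped (log2 fold -0.10 ± 0.09, limma adjusted p = 0.692, Benjamini-Hochberg).

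Proliferation genes were higher in sanroque on these arrays. Of 23 cell cycle genes 13 rose (56.5%, against 3.26% of all genes) and 0 fell, with a median log2 fold of 0.59. Mki67, a marker of cycling cells, read 8.14, 8.23 and 8.13 in sanroque and 5.46, 5.79 and 5.37 in wild type. The cytoplasmic ribosome shares no protein gene with the mitochondrial one. Its 49 measured Rpl and Rps genes had a median log2 fold of -0.10. Of these 1 fell (2.04%, where 2.51% of all genes and 4.98% of genes above 6 fell) and 0 rose. Their folds were below 0 in 41 (83.7%), and all sanroque arrays lay below wild type in 15 (30.6%) and above in 1. Over all genes, 61.5% had a fold below 0, and all sanroque arrays lay below wild type in 13.2% and above in 9.46%. Among genes above a level of 6, the fold was below 0 in 58.9% and all sanroque arrays lay below in 20.6%. All 9 T cell markers had a fold below 0, with a median of -0.11, and in 4 (44.4%) all sanroque arrays lay below wild type. A fold below 0 was thus not particular to mitochondrial ribosomal protein genes, whose median was -0.25.

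The brightest members had the largest median difference. The 16 members with a mean level above 9 had a median log2 fold of -0.41 and included 6 of the 9 called genes, against -0.24 for the 25 members between 8 and 9, -0.23 for the 25 between 7 and 8 and -0.25 for the 11 below 7. Calls were also more frequent among brighter genes in general, with 2.51% of all genes and 4.98% of genes above 6 called lower. The share of all genes above 9 was not computed. Over the 77 members Pearson's r of level and fold was -0.30 (Spearman's rho -0.32), and over 9750 genes above 6 it was -0.09 (rho -0.04). These points are genes on the same 6 arrays and are not independent.

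**Figure D4:**
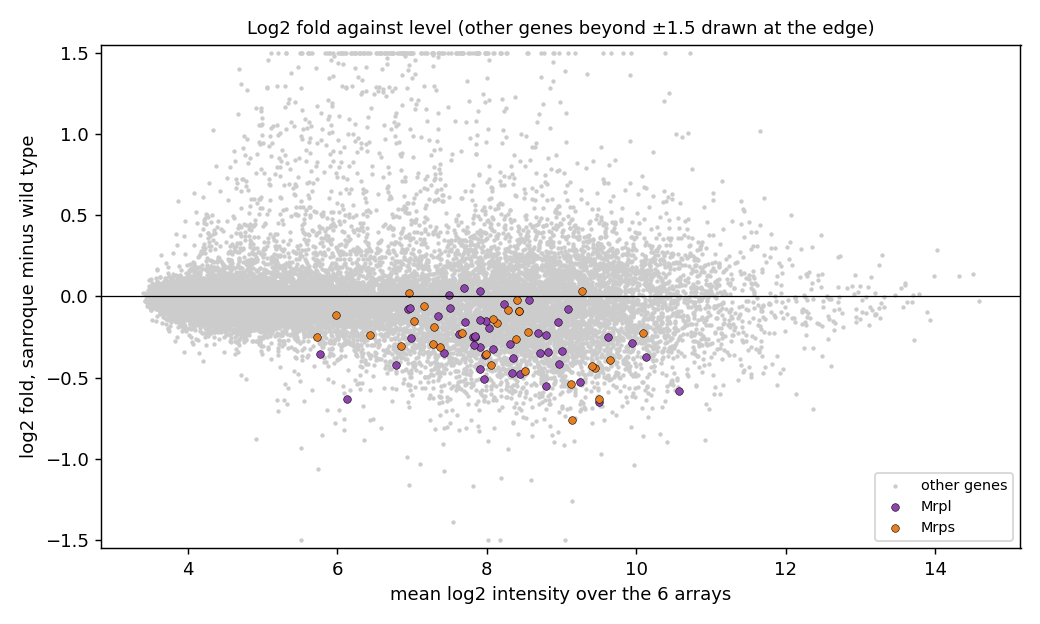
Log2 fold of sanroque minus wild type against mean log2 intensity over the 6 arrays, with Mrpl genes in purple, Mrps genes in orange and the other genes in grey. Of the 77 members 72 lie below 0, and the 16 members above a level of 9 have a median of -0.41.

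Probe sets can read near-identical copies of these genes. Of the 77 members 8 had more than 1 probe set, and the brightest was used. The further probe sets of Mrpl23, Mrpl41, Mrpl47, Mrpl51, Mrps5, Mrps33 and Mrps36 also had folds below 0, between -0.67 and -0.12, and that of Mrpl27 had 0.02. The gene table lists pseudogene copies of Mrpl23, Mrpl27, Mrpl48 and Mrps36, whose signals could be split or shared, so the values of these 4 genes are uncertain to that extent. Probe set numbers used for Mrps33, Mrpl27, Mrpl41, Mrpl51 and the called Mrpl48 lie among those of genes on other chromosomes. These probe sets may therefore also read copies, which was not tested. The further probe sets of Mrps33, Mrpl27, Mrpl41 and Mrpl51 gave log2 folds of -0.67, 0.02, -0.26 and -0.36, and Mrpl48 had no further probe set.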

How the data were processed

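The data are 6 Affymetrix arrays, 3 per genotype. The deposited values are linear intensity, 1 for each probe set on each array, and per the labels' protocols biotin-labelled cRNA was hybridized. Partek appears in the submitters' processing notes. How the authors corrected background, summarized probes and normalized is not given in the sources used here. Values were put on log2 without further normalization. Of 35399 probe sets, 21789 had exactly 1 symbol, 1621 had several and 11989 were not listed. The brightest probe set represented each of 19938 genes. Sanroque was compared with wild type in limma 3.58.1 under R 4.3.3 (lmFit, then eBayes), as a two-sided test with Benjamini-Hochberg adjustment over all genes and a threshold of 0.05, and standard errors are those of the moderated fit. The fit was tested on simulated data. The number of arrays limits the precision, and p-values measure only the spread between these samples.

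Named members were all called ones, the 3 largest other folds per subunit and direction, and the highest and lowest mean level per subunit. In each other mitochondrial list, up to 4 called genes were named, or the 2 with the smallest p, beside Mki67, Myc, Rc3h1 and Cd8a. Other members are listed to account for the set, and Cd3d, Cd44 and Xist were named after their values were seen. Members and lists were chosen with earlier results of these data known. Promoters were read from the RefSeq table of GRCm38.p6. Alternatives covered probe sets, a filter at a mean log2 of 6, scaling, variance models, array weights, the replicate number, a fold minimum of 1.5 and left-out arrays. Figures used matplotlib 3.10.9 in Python 3.11.15.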

Additional observations from a re-analysis of the deposited data

How the results depend on the processing

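Every alternative kept the median log2 fold of Mrpl and of Mrps genes below 0, and no member was called higher in any of them, but the number called lower varied. With 1 array left out, called Mrpl genes ranged from 0 to 8, Mrps genes from 0 to 8, all genes called lower from 22 to 728 and all genes called higher from 196 to 587. The medians ranged from -0.35 to -0.23 for Mrpl and from -0.31 to -0.20 for Mrps genes. In the same fits, proteins under other symbols called lower numbered 0 to 1, assembly factors 0 to 5, translation factors 1 to 2, tRNA synthetases 0 to 1 and transcription and biogenesis genes 0 to 1. Without both arrays that stood apart, 0 Mrpl and 0 Mrps genes, 0 proteins under other symbols, 0 assembly factors, 1 translation factor, 27 lower genes and 326 higher genes overall were called.

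Array weights, which gave wild type replicate 1 a weight of 7.99 and the other arrays 0.34 to 1.71, called 31 Mrpl and 20 Mrps genes lower, with medians of -0.37 and -0.35, and 2735 lower and 1998 higher genes overall. In that fit 3 proteins under other symbols, 15 assembly factors, 8 translation factors, 5 tRNA synthetases and 2 transcription and biogenesis genes were called lower, and 1 assembly factor higher. Quantile normalization called 8 Mrpl genes and 4 assembly factors, and median centring 0 assembly factors. The fit with trend and robust settings called 3 Mrpl genes, 0 proteins under other symbols, 2 assembly factors and 1 translation factor. The filter on dim genes called 3 assembly factors. At a fold minimum of 1.5 there were 0 Mrpl genes, 2 Mrps genes, 0 proteins under other symbols, 0 assembly factors, 1 translation factor and 133 lower genes overall. The cause of these differences was not tested.

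Deviations from the group mean correlated at -0.05, -0.16 and -0.36 between same-numbered arrays over all genes. Between arrays of different number the correlations ran from -0.17 to 0.29. With 3 arrays per group these values cannot show whether same-numbered arrays were handled together, and the labels do not say. With the replicate number as a block, 0 Mrpl and 0 Mrps genes, 0 proteins under other symbols, 0 assembly factors, 1 translation factor, 30 lower and 271 higher genes overall were called, and medians were as without it.

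Over 14 refits the sign turned at least once in 10 of the 77 members, namely all 5 with a log2 fold above 0 and 5 of the 72 below it (Mrpl14, Mrpl28, Mrpl52, Mrps6 and Mrps12, the last run in 13 refits). The highest log2 folds among these refits were 0.10 for Mrpl14, 0.053 for Mrpl28, 0.088 for Mrpl52, 0.23 for Mrps6 and 0.083 for Mrps12. With 1 array left out, log2 folds ranged from -0.0080 to 0.095 for Mrpl12, from -0.034 to 0.13 for Mrpl27, from -0.074 to 0.069 for Mrpl57, from -0.051 to 0.12 for Mrps16 and from -0.087 to 0.13 for Mrps10. Without both arrays that stood apart, Mrpl12 had -0.0032, Mrps16 -0.054 and Mrps10 -0.18. Mrpl57 had -0.016 under median centring and -0.076 with array weights. Mrps10 had -0.0091 under quantile normalization and -0.0052 under median centring. Rc3h1 had -0.049 over the mean of its probe sets.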

Other observations

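Mrps6, a relative of bacterial S6 that was singled out after its values were seen, had the largest standard error of any member with a mean level above 6. It read 7.88, 8.19 and 9.08 in sanroque and 8.75, 8.27 and 8.21 in wild type, so that sanroque replicate 3 was above every wild-type array and sanroque replicates 1 and 2 below them. Its log2 fold was -0.02 ± 0.30 (limma adjusted p = 0.986, Benjamini-Hochberg).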
